A study of Caenorhabditis elegans with 6 samples.

Results

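Lysozymes are enzymes that cut peptidoglycan, the sugar and peptide mesh of bacterial cell walls. Caenorhabditis elegans lives on bacteria, and its lysozymes are known both as digestive enzymes of the intestine and as effectors of defence against ingested pathogens. The lys genes encode the family of lysozymes that resemble those of amoebae, and several of them are known to respond to infection, to the insulin pathway through the transcription factor DAF-16, to the DBL-1 growth factor pathway and to the p38 kinase PMK-1. The values below are for lys-1 to lys-10, which were taken from the deposited counts by gene identifier. All 10 lysozyme genes were present among the 46748 genes of the counts table, and 7 of the 10 had enough counts to be tested.

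Whole hermaphrodites of the wild-type strain N2 at an age of 2 days were compared under 2 perturbations, with 3 RNA-seq libraries each. The perturbation of the control group was L4440, the empty vector used in RNA interference by feeding. The other group received RNAi against T25B9.1, the worm counterpart of glycine C-acetyltransferase, a mitochondrial enzyme of threonine breakdown. The comparison asks which lysozyme transcripts differed when that enzyme was knocked down. Libraries held 26125982 to 40726259 counts, and the labels do not tell whether replicates were separate cultures, so the spread that the p-values rest on may be technical. The counts of T25B9.1 itself were 166, 154 and 185 in the L4440 libraries, the controls, against 36, 49 and 73 under RNAi. Its log2 fold change was -1.84 (SE 0.184, adjusted p = 0.0525 in edgeR's quasi-likelihood test), so the target was lower in all 3 RNAi libraries and just missed the threshold. One library, T25B9.1 RNAi replicate 1, was far from the rest, at 42.8 on the first principal component (46.9% of the variance) while the other 5 libraries lay between -29.3 and 5.14, and results are given without it where it moves them.

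The 10 genes lie at 6 places in the genome (build WBcel235, Ensembl annotation), and all are protein coding with 1 annotated transcript each. On chromosome V, lys-1 (plus strand, 10277904 to 10279056), lys-2 (minus strand, 10280307 to 10281474) and lys-3 (minus strand, 10282100 to 10283544) follow each other with gaps of 1250 and 625 bases and no annotated gene between them. A second run on the minus strand of chromosome IV holds lys-4 (11621429 to 11623174), lys-5 (11624252 to 11625582) and lys-6 (11626910 to 11627947), with gaps of 1077 and 1327 bases and no gene between. The other members stand alone, with lys-10 on the plus strand of chromosome IV from 8332826 to 8333518, lys-7 on the minus strand of chromosome V from 3481432 to 3482600, lys-8 on the plus strand of chromosome II from 5586178 to 5587651, and lys-9 on the minus strand of chromosome I from 12454853 to 12455826. By coding length the members form a longer class, with lys-1, lys-2, lys-3, lys-7 and lys-8 at 279 to 301 codons, and a shorter class, with lys-4, lys-5, lys-6, lys-9 and lys-10 at 214 to 230 codons. The longer class holds 4 of the 5 abundant members described next.

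A group of 5 members carried nearly all lysozyme transcripts. Per kilobase of exons, in CPM (counts scaled by TMM to a common library size), the levels averaged over the 6 libraries were 335 for lys-1, 203 for lys-7, 193 for lys-2, 184 for lys-8 and 86.2 for lys-4. The next member, lys-6, stood at 1.65 CPM per kilobase, 52.2 times below lys-4. Below it came lys-3 at 0.814, lys-5 at 0.364, lys-10 at 0.274 and lys-9 at 0.0461 CPM per kilobase. Among all tested genes, lys-4 was above 88.4% and lys-1 above 97.7% by this measure. Neighbours in this order overlapped in their ranges over the 6 libraries, except that lys-8 lay above lys-4, lys-4 above lys-6 and lys-6 above lys-3 in all of them.

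**Figure D1:**
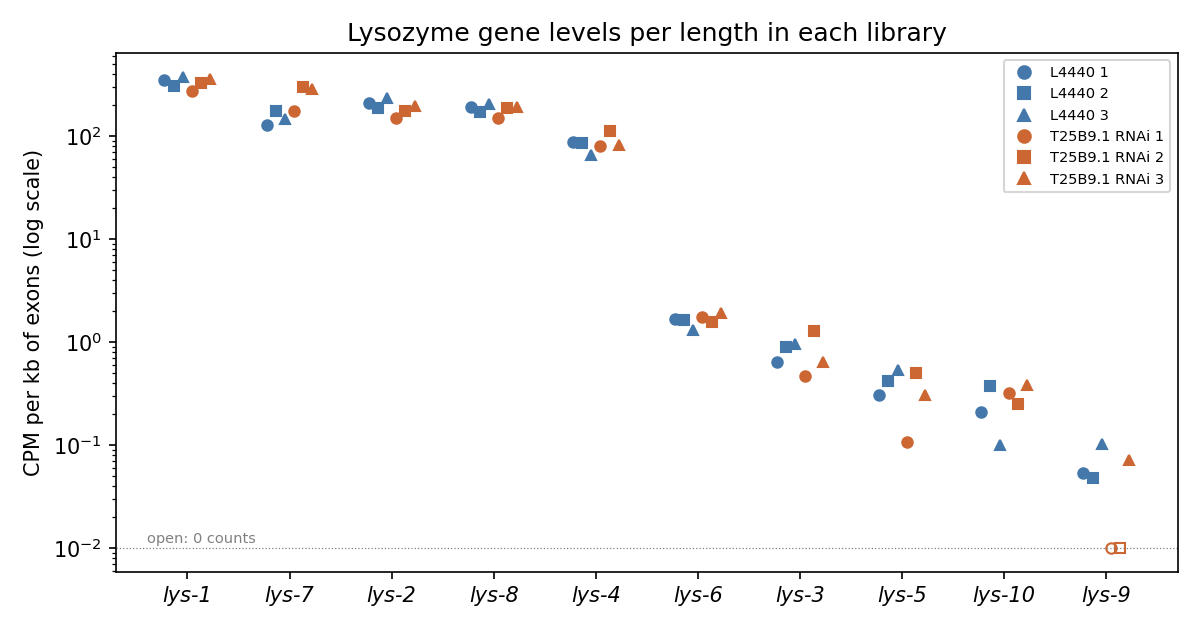
Level of each lysozyme gene in each of the 6 libraries, in TMM-scaled CPM per kilobase of exons on a log axis, with L4440 libraries in blue and T25B9.1 RNAi libraries in orange. The 5 abundant genes lie above 66.3, the other 5 lie below 1.94, and open symbols mark the libraries with 0 counts of lys-9.

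Neighbours within a run were close in level in 1 pair and far apart in others. Per length, lys-1 exceeded its neighbour lys-2 by only 1.60-fold to 1.90-fold in the 6 libraries. In contrast, lys-2 exceeded lys-3 on its other side by 136-fold to 326-fold, and lys-4 exceeded lys-6 by 42.7-fold to 72.0-fold. The same contrast for lys-4 over lys-5 ran from 122.3-fold to 752-fold, and that for lys-6 over lys-5 from 2.42-fold to 16.3-fold, with only 2 to 11 counts of lys-5 per library. The sequence identity between members was not examined here, so reads that fit more than 1 member cannot be told apart in these counts. Of the abundant genes, lys-8 shares 38 exonic bases with C17G10.13 on the opposite strand, and the library kit does not mark strand.

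Of the abundant genes, lys-7 had the largest difference between the groups. This lysozyme of the intestine is known as a target of DAF-16 and as a gene needed for resistance to some bacterial infections. Its level was 116, 158 and 131 CPM in L4440 replicates 1, 2 and 3 and 159, 273 and 260.1 CPM in the T25B9.1 RNAi replicates. RNAi replicates 2 and 3 lay far above every control library, whereas RNAi replicate 1 lay next to L4440 replicate 2. For that pair the exact 95% Poisson intervals of the counts overlapped, at 153.9 to 163.5 and 153.5 to 162.4 CPM, so the groups did not overlap only by a margin within the counting error of these libraries. Means were 135 ± 21.2 CPM in controls and 230.5 ± 62.5 CPM under RNAi (SD, n = 3), a 1.71-fold difference.

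The log2 fold change of lys-7 was 0.77 (SE 0.194, 95% interval 0.33 to 1.21), and it ranked 28 of the 13374 tested genes by p. The unadjusted p was 0.0033 and the adjusted p = 0.717 in edgeR's quasi-likelihood test, which did not call it. That test called 0 of the 7 lysozyme genes tested, and it called 0% of all 13374 genes at an adjusted p under 0.05. By DESeq2, which called 0.112% of all genes, lys-7 was the 1 lysozyme gene called (adjusted p = 0.0275). Over the 15 other settings tried, the adjusted p of lys-7 ran from 0.00105 without a filter on low counts to 0.971 without L4440 replicate 1, and its log2 fold change stayed between 0.61 and 0.97. Without the filter 0.613% of 22665 genes were called. With T25B9.1 RNAi replicate 1 left out, the log2 fold change was 0.97 (SE 0.133, edgeR adjusted p = 0.343). In bulk RNA of whole worms, a difference in RNA per cell and a difference in the share of cells that express a gene cannot be told apart.

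**Figure D2:**
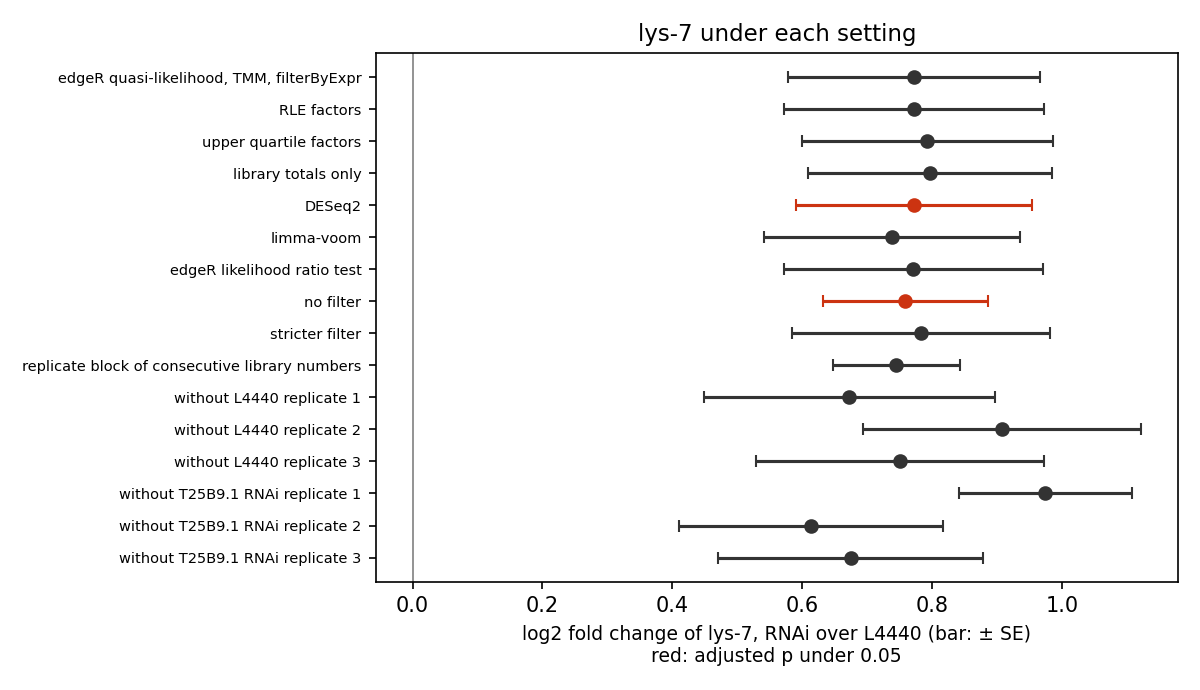
Log2 fold change of lys-7, T25B9.1 RNAi over L4440, with its SE as a bar, for the reported fit and the 15 other settings. Points lie between 0.61 and 0.97, and those in red, DESeq2 and the fit with no filter, have an adjusted p under 0.05.

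The other 4 abundant genes had smaller differences, and none was called. The gene lys-2 was at 195, 175 and 221 CPM in the controls and 140.1, 162 and 184 CPM under RNAi. RNAi replicate 3 lay among the controls and the other 2 RNAi libraries lay below all of them. Its log2 fold change was -0.28 (SE 0.116, 95% interval -0.54 to -0.02), with an unadjusted p = 0.038 and an adjusted p = 0.717 in edgeR. It was -0.19 (SE 0.103, unadjusted p = 0.103 in edgeR) without T25B9.1 RNAi replicate 1. With lys-7, it made 2 of 7 lysozyme genes at an unadjusted p under 0.05, against 6.18% of all genes tested.

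For lys-1, an intestinal lysozyme known to respond to bacterial infection, the libraries stood at 341, 297 and 364 CPM in controls and at 262, 318 and 348 CPM under RNAi. For lys-8, another intestinal member, they stood at 187, 169 and 200.0 CPM in controls and 146, 181 and 188 CPM under RNAi. In both genes RNAi replicate 1 was the lowest of the 6 libraries and the other 2 RNAi libraries lay within the range of the controls. The log2 fold changes were -0.11 (SE 0.116) for lys-1 and -0.11 (SE 0.106) for lys-8, with 95% intervals of -0.37 to 0.15 and -0.35 to 0.13. Without T25B9.1 RNAi replicate 1 both were at -0.01. As folds, the intervals over all 6 libraries ran from 0.77-fold to 1.11-fold for lys-1 and from 0.78-fold to 1.10-fold for lys-8.

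The shorter gene lys-4 was at 69.2, 67.6 and 52.3 CPM in controls and 63.7, 89.4 and 65.2 CPM under RNAi. RNAi replicate 2 was above all other libraries and L4440 replicate 3 was below them, while the remaining 4 lay close together. Its log2 fold change was 0.21 (SE 0.149, adjusted p = 0.729 in edgeR), and 0.01 without T25B9.1 RNAi replicate 2.

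**Figure D3:**
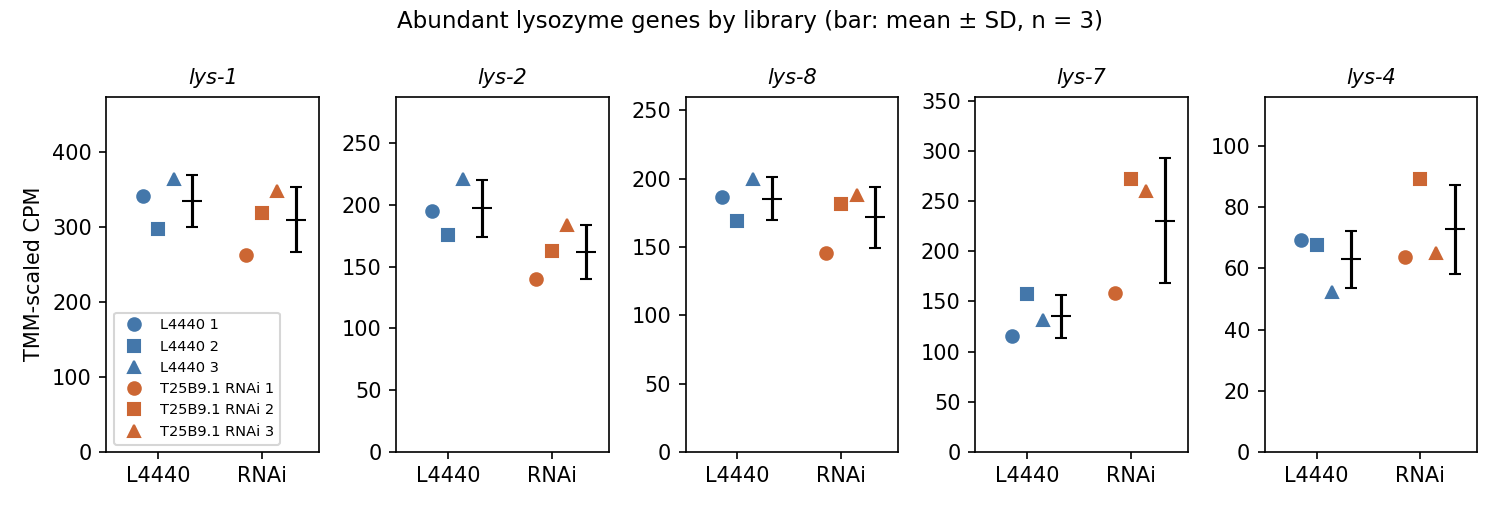
TMM-scaled CPM of the 5 abundant lysozyme genes in each library, with axes starting at 0 and mean ± SD (n = 3) beside each group. For lys-1, lys-2 and lys-8 the lowest of the 6 libraries is T25B9.1 RNAi replicate 1, at 262, 140.1 and 146 CPM, and for lys-7 the 2 highest are RNAi replicates 2 and 3, at 273 and 260.1 CPM.

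The low members were measured by few counts. The gene lys-6 had 33, 36 and 27 counts in the controls and 33, 32 and 57 under RNAi. At 1.10 ± 0.143 and 1.24 ± 0.128 CPM (SD, n = 3) its groups overlapped, with a log2 fold change of 0.19 (SE 0.216). The gene lys-3 had 20, 31 and 31 counts in controls and 14, 41 and 30 under RNAi, which placed both the lowest and the highest CPM in the RNAi group. Its log2 fold change was -0.07 with a 95% interval of -0.91 to 0.77, and it was above 0 without L4440 replicate 3 (0.04), T25B9.1 RNAi replicate 1 (0.17) or T25B9.1 RNAi replicate 3 (0.08). It moved furthest, to -0.57, without T25B9.1 RNAi replicate 2. The coefficient of variation of lys-3 was 19.9% in controls and 53.3% under RNAi, where counting error gives 19.4% and 20.2%, so under RNAi the replicates spread beyond counting error.

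The 3 members that were not tested had 0 to 11 counts per library. Summed over each group, lys-5 had 26 counts in controls and 21 under RNAi, and the ratio of RNAi over L4440, scaled for library size, was 0.731 (exact 95% interval 0.391 to 1.35, counting error only). For lys-10 the sums were 14 and 22 counts, a ratio of 1.42 (0.696 to 3.01). For lys-9 they were 4 and 2 counts, a ratio of 0.453 (0.0409 to 3.16). All 3 intervals include 1, so no difference in these genes was detectable at this depth.

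Among the 7 tested members, 3 had a log2 fold change above 0 and 4 below, with a median of -0.07. The sign of that median turned without T25B9.1 RNAi replicate 1 (0.165), L4440 replicate 3 (0.0371) or T25B9.1 RNAi replicate 3 (0.0773). Over all 13374 genes 50.6% were above 0, and the median was 0.00. The groups did not overlap for 1 of the 7 members, lys-7, against 10.9% of all genes tested. The summed level of the 10 genes was 917 ± 51.6 CPM in controls and 949 ± 153 CPM under RNAi (SD, n = 3). Without lys-7 the sums were 782 ± 65.4 and 718 ± 92.1 CPM, and the groups overlapped for both sums. For the 10 genes, T25B9.1 RNAi replicate 1, at 772 CPM, lay below all controls (869 to 971 CPM). RNAi replicates 2 and 3, at 1026 and 1048 CPM, lay above them. Without lys-7, RNAi replicate 1 was again the lowest, at 614 CPM. RNAi replicates 2 and 3, at 754 and 787 CPM, then lay within the range of the controls (711 to 840 CPM).

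**Figure D4:**
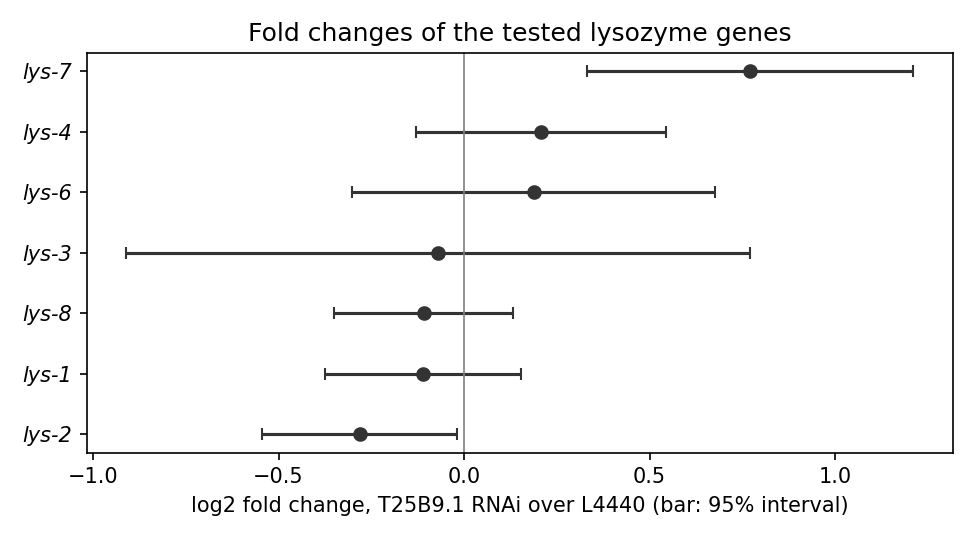
Log2 fold change of the 7 tested lysozyme genes, T25B9.1 RNAi over L4440, with 95% intervals from edgeR's quasi-likelihood fit of 6 libraries. The intervals of lys-7 (0.33 to 1.21) and lys-2 (-0.54 to -0.02) leave out 0, and neither gene was called after adjustment over all genes.

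The makeup of the pool of lys-1 to lys-10 counts can be read within each library, where it does not depend on how libraries are scaled. The share of lys-7 among the counts of lys-1 to lys-10 was 12.7%, 18.2% and 13.5% in the controls and 20.5%, 26.6% and 24.8% in the RNAi libraries. It was thus higher in each RNAi library than in any control, with means of 14.8 ± 2.93% and 24.0 ± 3.10% (SD, n = 3). The share of lys-1 was 36.4 ± 1.91% and 32.7 ± 1.56%, that of lys-2 21.5 ± 1.31% and 17.2 ± 1.20%, and that of lys-8 20.2 ± 0.653% and 18.1 ± 0.636%. Because shares sum to a fixed total, a larger share of 1 member lowers the others, and the ratios between members are given next.

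The ratio of lys-1 to lys-8 was nearly the same in every library. Per length it was 1.85, 1.78 and 1.84 in the controls and 1.82, 1.77 and 1.88 under RNAi, with means of 1.82 ± 0.0378 and 1.82 ± 0.0519 (SD, n = 3). Its coefficient of variation over the 6 libraries was 2.23%, where counting error alone gives 1.71%. The CPM of lys-1 over the same libraries ranged from 262 to 364. Among 4023 tested genes with a mean of at least 50 CPM, lys-8 had the second smallest spread of its log2 ratio to lys-1 over the 6 libraries (SD 0.0322, median of these genes 0.176), after C17F4.7 (SD 0.0313). That ranking was made after the values were seen. The genes lys-1 and lys-8 lie on different chromosomes. The gene lys-2, which lies next to lys-1, ranked 462 by the same measure, which also takes in any difference between the groups. Within groups the spreads were alike. The coefficient of variation of lys-1 over lys-2 was 2.98% in controls and 2.32% under RNAi, and that of lys-1 over lys-8 was 2.07% and 2.85%.

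The ratio of lys-1 to its neighbour lys-2 was higher under RNAi. It was 1.70, 1.65 and 1.60 in the controls and 1.82, 1.90 and 1.84 under RNAi, so that all 3 RNAi libraries lay above all controls. The means were 1.65 ± 0.0491 and 1.85 ± 0.0429 (SD, n = 3), a 1.12-fold difference that ran from 1.11-fold to 1.14-fold with any 1 library left out. A 2-sided exact permutation test gave p = 0.1, the smallest that 3 against 3 libraries allow. Each ratio here whose groups did not overlap gave this p, so it adds nothing to the order of the libraries. The ratios were added after their values were seen. The ratio of lys-2 to lys-8 was 1.11 ± 0.0387 in controls and 0.985 ± 0.0459 under RNAi, also without overlap (exact permutation p = 0.1).

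The place of lys-7 in the order of levels was not the same in the controls and under RNAi. Per length it was below lys-2 in all 3 L4440 libraries, with lys-2 over lys-7 at 1.63, 1.07 and 1.63, and above it in all 3 RNAi libraries, at 0.855, 0.577 and 0.685. Its ratio to lys-8 was 0.669, 1.01 and 0.706 in controls and 1.17, 1.62 and 1.49 under RNAi (exact permutation p = 0.1). Of the 10 ratios among the 5 abundant genes, 5 did not overlap between the groups, and each of the 5 has lys-7 or lys-2 set against lys-1 or lys-8, or the 2 against each other. These ratios share genes and are not independent, and the share over pairs of other genes was not computed. Both lys-7 and lys-2 had an unadjusted p under 0.05 in edgeR, so the count of 5 largely restates their differences. The ratio to lys-1 did not overlap for 2 of the 4 other abundant genes, against 6.92% of the 13373 other genes tested.

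**Figure D5:**
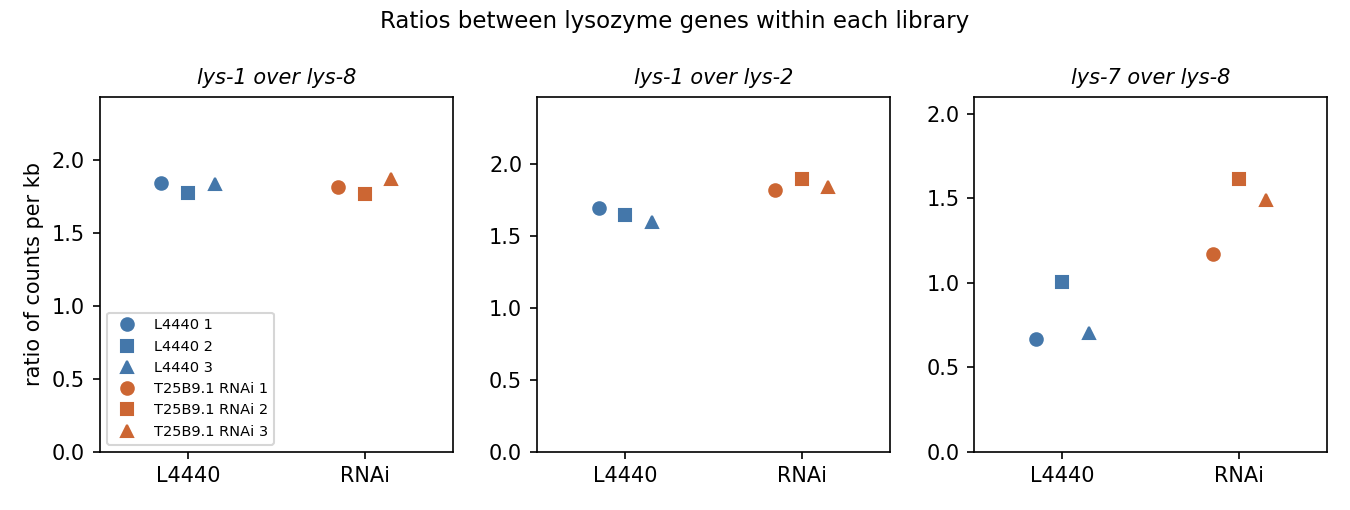
Ratios of counts per kilobase between lysozyme genes within each of the 6 libraries, with axes starting at 0. The ratio of lys-1 to lys-8 stays between 1.77 and 1.88, lys-1 over lys-2 is 1.60 to 1.70 in controls and 1.82 to 1.90 under RNAi, and lys-7 over lys-8 is at most 1.01 in controls and at least 1.17 under RNAi.

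Differences between replicates in the abundant genes were far larger than counting error. The coefficient of variation of lys-7 was 15.7% in controls and 27.1% under RNAi, where counting error gives 1.61% and 1.21%. For lys-4 it was 14.8% and 19.9% against 2.35% and 2.11%. For lys-6 the spread, 13.0% and 10.3%, was below the counting error of 17.8% and 16.1%.

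Summed markers of 7 of 8 tissue lists were highest in T25B9.1 RNAi replicate 1, the library in which lys-1, lys-2 and lys-8 were lowest. The 10 pharynx markers summed to 226 CPM in T25B9.1 RNAi replicate 1, against 79.4 to 109 CPM in the other 5 libraries, and the 10 epidermis and cuticle markers to 547 CPM, against 269 to 337 CPM. Body wall muscle markers stood at 1610 CPM, against 855 to 1304 CPM, and neuron markers at 297 CPM, against 253 to 291 CPM, while the small sperm and coelomocyte sums were at 6.99 and 6.88 CPM, against at most 6.19 and 6.01 CPM. Germline markers did not follow this order, at 10361 CPM within a range of 10222 to 11271 CPM over the 6 libraries. Of the pharynx markers 8 of 9 tested, and of the epidermis markers 8 of 10, had a log2 fold change above 0, against 50.6% of all genes tested. These signs are over all 6 libraries and were not taken without T25B9.1 RNAi replicate 1. In RNAi replicates 2 and 3 the sums lay within the range of the controls, at 103 and 101 CPM for pharynx and 298 and 333 CPM for epidermis. Of both lists edgeR called 0, as it called 0% of all genes tested. The 10 intestine markers, in the tissue best known for lysozymes, summed to 1920 to 2020 CPM in controls. Under RNAi they summed to 1996 to 2169 CPM, with RNAi replicate 1 the highest. Most of that sum was asp-1, at 1103 ± 76.5 CPM in controls and 1166 ± 68.6 CPM under RNAi (SD, n = 3). Of the 10 intestine markers 7 were above 0, while ges-1, elt-7 and mtl-2 were below. Their median log2 fold change was 0.03 and edgeR called 0. The metallothionein gene mtl-2 was the 1 intestine marker that DESeq2 called (log2 fold change -0.49, adjusted p = 0.0489). It was at 44.4 ± 5.81 CPM in controls and 31.6 ± 2.00 CPM under RNAi (SD, n = 3), with no overlap (unadjusted p = 0.00107 in edgeR), and it was named after its values were seen. Their part in the lysozyme values was not tested.

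Other antibacterial gene families were measured in the same fit, from lists drawn up for this comparison. That fit called 0% of all 13374 genes tested, so a count of 0 called is not particular to a list. Of 6 invertebrate-type lysozyme genes, a separate enzyme family with the same substrate, 2 had enough counts to be tested and 0 were called. The more abundant of them, ilys-5, was at 928 ± 88.6 CPM in controls and 833 ± 86.5 CPM under RNAi (SD, n = 3), and ilys-4 at 2.81 ± 0.429 and 2.37 ± 0.292 CPM. Of 23 caenopore genes, which encode small proteins that open pores in bacterial membranes, 15 were tested and 0 called, with 4 above 0 and 11 below and a median log2 fold change of -0.08 (-0.203 without T25B9.1 RNAi replicate 3, -0.0284 without T25B9.1 RNAi replicate 1). The members with the smallest p were spp-4, at 30.4 ± 4.14 and 25.1 ± 2.34 CPM, and spp-13, at 0.327 ± 0.220 and 0.786 ± 0.418 CPM. Of 6 antibacterial factor peptide genes 3 were tested and 0 called, and all 3 were above 0, although their median, 0.098, was -0.0858 without L4440 replicate 2. Among them abf-5 was at 1.37, 1.39 and 1.59 CPM in controls and 2.22, 2.55 and 3.88 CPM under RNAi, with no overlap (log2 fold change 1.001, SE 0.245, unadjusted p = 0.00281 and adjusted p = 0.717 in edgeR). The peptide gene abf-6 was at 2.04 ± 0.485 and 2.17 ± 0.463 CPM.

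Genes of the pathways known to act on lys genes were not called either, where edgeR called 0% of all 13374 genes tested. The medians of these lists moved with single libraries. The 7 genes of the p38 immune pathway all had a log2 fold change above 0, with a median of 0.14, which was 0.0402 without L4440 replicate 1, 0.0656 without L4440 replicate 3 and 0.0467 without T25B9.1 RNAi replicate 1. The kinase gene pmk-1 was at 22.96 ± 1.49 CPM in controls and 25.3 ± 1.28 CPM under RNAi (SD, n = 3), and its upstream kinase gene nsy-1 at 59.7 ± 14.4 and 69.5 ± 11.6 CPM. Of 9 genes of the DBL-1 pathway 7 were above 0, with a median of 0.13, which was 0.0218 without L4440 replicate 1, 0.0696 without L4440 replicate 2 and 0.0283 without T25B9.1 RNAi replicate 1. The zinc finger gene sma-9 was at 96.8 ± 14.9 and 119 ± 19.7 CPM. The SMAD gene sma-4 was at 8.48 ± 0.349 and 9.77 ± 0.420 CPM with no overlap, as were 10.9% of all genes tested. Of 12 genes of the insulin pathway 8 were above 0, and the median of 0.04 ran from -0.0104 (T25B9.1 RNAi replicate 2 left out) to 0.0936 (L4440 replicate 2 left out). The receptor gene daf-2 was at 141 ± 31.5 and 174 ± 32.0 CPM and aap-1, an adaptor of its kinase, at 106 ± 2.23 and 101 ± 6.15 CPM. Of 11 genes for transcription factors or other regulators active in the intestine or in immunity 7 were above 0. The median of the 11, 0.06, was 0.022 without T25B9.1 RNAi replicate 1. Among these genes hlh-30 was at 50.7 ± 6.09 and 58.7 ± 9.37 CPM and nhr-86 at 32.3 ± 3.12 and 29.2 ± 0.649 CPM. The groups also did not overlap for elt-2, at 9.59 ± 0.568 and 10.6 ± 0.666 CPM. In these 4 lists 0 of 39 genes had an unadjusted p under 0.05 in edgeR, against 6.18% of all genes tested.

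The genes whose levels followed lys-7 most closely over the 6 libraries, among 8406 tested genes with a mean of at least 5 CPM, were fbxa-64, F54C9.3, F10E9.12, T02G5.3 and C14C6.5. Their Pearson r with lys-7 on log2 CPM was 0.95 to 0.97, as a description over 6 libraries picked from many genes. The size of the difference was unlike that of lys-7 in the first 4, with log2 fold changes of 0.11 to 0.23. Of these genes only C14C6.5 differed by more than lys-7, with a log2 fold change of 1.08. It was at 19.3 ± 0.938 CPM in controls and 40.7 ± 8.89 CPM under RNAi (SD, n = 3). Its lowest RNAi library, like that of lys-7, was replicate 1 at 30.5 CPM, a likeness that picking by correlation favours.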

How the data were processed

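The authors deposited raw counts per gene for 6 libraries of total RNA, prepared by TruSeq RNA v2 (a kit that does not mark strand), per the labels. The submitters' processing notes name bcl2fastq (1.8.4), featureCounts (1.4.6-p4), STAR (2.4.1d) and build WBcel235, with no options or annotation release. The second table that the authors deposited, named RPKM, was treated as a score and gave no results. The factor between its values and the counts changed from row to row with a period of 36 rows, and between L4440 replicate 1 and T25B9.1 RNAi replicate 1 it ran from -0.60 to 0.76 (log2).

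Groups are the labels' perturbations, and accession order numbers the replicates. Identifiers were matched to symbols for 43693 genes and to Ensembl release 115, the same build, for 46449. Of 22665 genes with any count, 13374 passed filterByExpr. These were given TMM factors and fitted by edgeR's quasi-likelihood method (version 4.0.16, R 4.3.3; glmQLFTest, 2-sided), with p adjusted by Benjamini-Hochberg over all genes tested and a threshold of 0.05. The SE is the log2 fold change divided by the square root of F. Length is the union of annotated exons. The fit was tested on simulated data. Alternatives were RLE, upper quartile or no factors, DESeq2 1.42.0, limma-voom (limma 3.58.1), the likelihood ratio test, no filter, at least 1 CPM in 3 libraries, each library left out, and a block of consecutive library numbers. The members and lists were chosen with earlier results of these data known, and the ratios within a library were added after their values were seen. Named are T25B9.1, all members, up to 2 genes per list with the smallest p and the 5 genes most like lys-7. Other genes named were chosen later. No library was a copy of another (chi-square per gene at least 7.10). Counting intervals cover counting error only. Sequences were not used here.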

Additional observations from a re-analysis of the deposited data

How the results depend on the processing

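Among the 10 members only lys-7 was called in any alternative, by DESeq2 (log2 fold change 0.77, adjusted p = 0.0275) and without a filter (0.76, adjusted p = 0.00105), so that 1 lysozyme gene was called there instead of 0. The cause was not tested. Genes called higher, 0 as reported, numbered 11 by DESeq2, 9 by the likelihood ratio test and 123 without a filter. Genes called lower, 0 as reported, numbered 4, 3 and 16 in the same order, and 1 with RLE factors. With 1 library left out, 0 to 1 genes were called higher and 0 lower. At an unadjusted p under 0.05 edgeR gave 826 genes and limma-voom, which called 0, gave 710. T25B9.1 passed the threshold with RLE factors (-1.83), by DESeq2 (-1.83), by the likelihood ratio test (-1.84) and without a filter (-1.85), and ran from -1.93 to -1.74 with 1 library left out. The median over the tested members, -0.07, was 0.0535 with the stricter filter, which tests fewer of them. With 1 library left out it was lowest, at -0.146, when T25B9.1 RNAi replicate 2 was dropped and highest, at 0.165, when T25B9.1 RNAi replicate 1 was dropped. The difference in the share of lys-7, 9.17 percentage points, ran from 7.88 to 10.9. Of the 7 tested members, lys-3 was the 1 whose direction changed.

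The labels name nothing that consecutive library numbers share. With a replicate block of those numbers lys-7 had a log2 fold change of 0.74 (SE 0.0977, adjusted p = 0.174) and lys-2 of -0.28 (SE 0.0768, adjusted p = 0.417), and the block changed no call. In each of the 3 consecutive pairs the libraries deviated together from their group means (r = 0.218, 0.413 and 0.271). The other 6 pairings ran from -0.376 to 0.109. Deviations from a group mean cancel within the group, so positive r in some pairings forces lower r in others. The contrast is thus in part arithmetic, and a hint from the data and not from the design. Depth limits lys-5, lys-6, lys-9 and lys-10, and with the spread between libraries also lys-3.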

Other observations

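The neighbours of lys-7 on chromosome V had almost no counts in these worms. The nearest 2 annotated protein-coding genes on each side of it, srbc-31, srbc-30, srbc-33 and srbc-32, all of a chemoreceptor family, had 0 to 1 counts in each of the 6 libraries, while lys-7 had 3216 to 10797. In consecutive library numbers, lys-7 was 1.37, 1.73 and 1.98 times as high in the RNAi library as in its L4440 neighbour. For lys-2 it was 0.718, 0.927 and 0.831 times as high. The other tested members, lys-1, lys-3, lys-4, lys-6 and lys-8, were higher in some pairs and lower in others. The labels state no pairing, and the share of all genes with the same direction in every pair was not computed. The steadiest ratios to lys-1, after C17F4.7 and lys-8, belonged to thk-1, mrpl-40 and K07A1.1 (SD of the log2 ratio 0.0379 to 0.0398). These genes were chosen after their values were seen.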
